A study of Mus musculus with 22 samples.

Results

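The cytosolic ribosomal protein genes encode the proteins of the large and small subunits of the ribosome that translates nuclear-encoded mRNA. They were chosen by symbol (Rpl or Rps followed by a number, with or without a letter, and Rplp0, Rplp1, Rplp2 and Rpsa) and by a mean RPKM of at least 5 over all libraries, and symbols ending in "-ps" were left out. Of 23909 gene symbols in the deposited table, 84 had such a name and 81 passed the limit on the mean. RPKM are reads per kilobase of transcript, scaled to the depth of the library. The 81 genes comprise 43 of the large subunit, 31 of the small subunit, 3 of the stalk and 4 paralogs (Rpl7l1, Rpl22l1, Rps27l and Rps4l), which are closely related copies of another ribosomal protein gene.

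The 22 libraries hold poly(A) RNA of the liver of fasted male C57BL/6 mice. Conventional mice of the Jackson vendor form the group JAX (n = 4), those of Taconic the group TAC (n = 4), and mice raised free of microbes the group GF (n = 4). The other 2 groups were germ-free until inoculated with cecal material, of JAX mice in GF_JAX (n = 5) or of TAC mice in GF_TAC (n = 5), and were studied 4 weeks later, with a fast of 16 h stated for them. The comparisons set livers without microbes, with the microbes of either vendor, and after either donation side by side. Among JAX, TAC and GF, the microbes cannot be told apart from the vendor or source of the mice. No label says that the numbered libraries of a group come from different animals. A p-value therefore measures only the spread among samples, part or all of which may be technical.

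The ribosome joins a large subunit, which links amino acids into protein, and a small subunit, which reads the mRNA. The flexible stalk of the large subunit (Rplp0, Rplp1 and Rplp2) recruits the elongation factors. In mammals most mRNAs of ribosomal proteins begin with a run of pyrimidines directly at the cap, the 5-TOP sequence, through which mTORC1 and the protein Larp1 control their translation together with that of elongation factors. In the liver, feeding and fasting are known to change the translation of these mRNAs, and poly(A) RNA sequencing measures their level and not their translation.

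Promoter sequence was available from RefSeq (build GRCm38.p6) for 60 of the 81 genes, with 71 promoters, each a window of 300 bases from 250 before to 50 after the annotated start. The other 21 genes include Rpl3, Rpl7, Rpl8, Rpl17, Rpl21, Rpl23a, Rpl29, Rpl30, Rpl32, Rpl36, Rplp1, Rps4l, Rps14, Rps20, Rps27a and Rps29. The 50 bases around the start, 35 before and 15 after it, are shown in gene orientation for genes that the results below turn on, so that the sequence at the start can be read. Capitals mark a run of at least 5 pyrimidines (C or T) that begins with C within 10 bases of the annotated start. Where a gene had several promoters, the one with the longest such run was chosen for display. The first 4 belong to small and large subunit genes that were called between groups.
Rps6, chr4:86857353-86857402, minus strand: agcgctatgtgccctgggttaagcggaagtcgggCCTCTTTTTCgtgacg
Rpl27a, chr7:109519160-109519209, plus strand: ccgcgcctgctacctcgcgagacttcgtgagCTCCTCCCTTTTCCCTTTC
Rps15a, chr7:118116133-118116182, minus strand: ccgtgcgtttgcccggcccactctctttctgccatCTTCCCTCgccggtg
Rpl35a, chr16:33056447-33056496, plus strand: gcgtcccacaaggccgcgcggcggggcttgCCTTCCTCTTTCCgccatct
The next pair shows Rpl22 and its paralog Rpl22l1, whose runs differ in length.
Rpl22, chr4:152324401-152324450, plus strand: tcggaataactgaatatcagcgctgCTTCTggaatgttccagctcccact
Rpl22l1, chr3:28805473-28805522, plus strand: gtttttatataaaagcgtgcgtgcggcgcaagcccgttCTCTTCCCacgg
Rplp2 stands for the stalk, and Rps27 is shown because its deposited values fell into separate levels.
Rplp2, chr7:141447616-141447665, plus strand: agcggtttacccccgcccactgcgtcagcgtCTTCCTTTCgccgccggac
Rps27, chr3:90213634-90213683, minus strand: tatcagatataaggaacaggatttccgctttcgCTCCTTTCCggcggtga
Rpl41 and Rpsa held no such run at the annotated start.
Rpl41, chr10:128549154-128549203, minus strand: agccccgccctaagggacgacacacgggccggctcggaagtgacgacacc
Rpsa, chr9:120127731-120127780, plus strand: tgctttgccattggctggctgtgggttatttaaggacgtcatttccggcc

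The pyrimidine run was found in 35 of the 71 promoters (49.3%), against 29.0% of all 32851 promoters searched the same way. The run of Rpl27a was 20 bases long and passed the end of the printed window, that of Rps6 was 10 bases and that of Rpl22 was 5. The run of Rpl22 ended before the annotated start, and so lay outside the mRNA as annotated. Of the other motifs, searched as exact letters on both strands of the 300 bases, CCGGAAG, the core bound by ETS factors such as GABP, occurred in 26 promoters (36.6%) and in 8.86% of all promoters. AAGATGG, the core bound by YY1, occurred in 12 (16.9%) and in 6.34%, and GGGCGG, the core bound by SP1, in 44 (62.0%) and in 35.7%. CCGGAAG ends and AAGATGG begins with AAG, so matches of these can overlap. A match describes letters, not a bound site, and annotated starts can lie some bases from the base at the cap.

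Nearly all of these genes were among the abundant transcripts of the liver. The median of the mean RPKM was 413 in the large subunit, 518 in the small subunit, 580 in the stalk and 96.7 in the paralogs. The highest mean RPKM were those of Rpl38 (1075), Rps28 (911), Rplp1 (881), Rpl36 (831) and Rpl41 (830.3), for comparison with 856 for Alb, the gene of serum albumin. Alb held up to 1.89 reads per base of transcript, and 2 of 13318 transcripts exceeded 2. Whether such coverage limited its value was not tested, so the comparison does not rank these mRNAs against that of albumin. The lowest were Rps15a (18.1), Rpl26 (40.0), Rpl7l1 (62.8), Rpl30 (72.8) and Rps4l (83.5). RPKM divide by transcript length, and the length inferred for Rps15a was 5134 bases, the longest of the 70 members with recovered reads. In JAX 1 it had 199 reads at 16.1 RPKM, where Rplp1 had 509 reads at 782, so its low value does not mean correspondingly few reads. Just outside the limit of 5, Rpl3l reached 0.321, and Rpl10l and Rpl39l were listed at 0 in every library. Rps3, a small subunit protein at the mRNA entry, had a mean of 182 and Rpl5, which binds 5S rRNA with Rpl11, of 171, while Rpl11 had 673. Many ribosomal protein genes have near-identical processed copies elsewhere in the genome, and how reads that match several places were counted is not given in the sources used here, so these levels are uncertain, those of low members such as Rps15a, Rpl26 and Rpl30 included.

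The whole set rose and fell together from library to library. For each gene, log2(RPKM + 1) was correlated over the 22 libraries with the mean of the other members, and 70 of 81 genes had r over 0.9 (median 0.967). The least like the rest were Rps27 (r = -0.203), Rpl26 (0.126), Rpl30 (0.380), Rps4l (0.485), Rpl7l1 (0.600) and Rpl22l1 (0.724), so that 3 of the 4 paralogs are among them. The genes outside the set and outside the related lists whose pattern came closest to its mean were Mpc2 (r = 0.986), a subunit of the mitochondrial pyruvate carrier, Cst3 (0.982), a secreted protease inhibitor, Psmb5 (0.979), a catalytic subunit of the proteasome, 2410015M20Rik (0.977) and Timm13 (0.977), a mitochondrial import chaperone. These correlations are descriptions over libraries that share depth and preparation. Plotted gene by gene, the libraries form vertical bands that cross large subunit, small subunit and stalk alike.

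**Figure D1:**
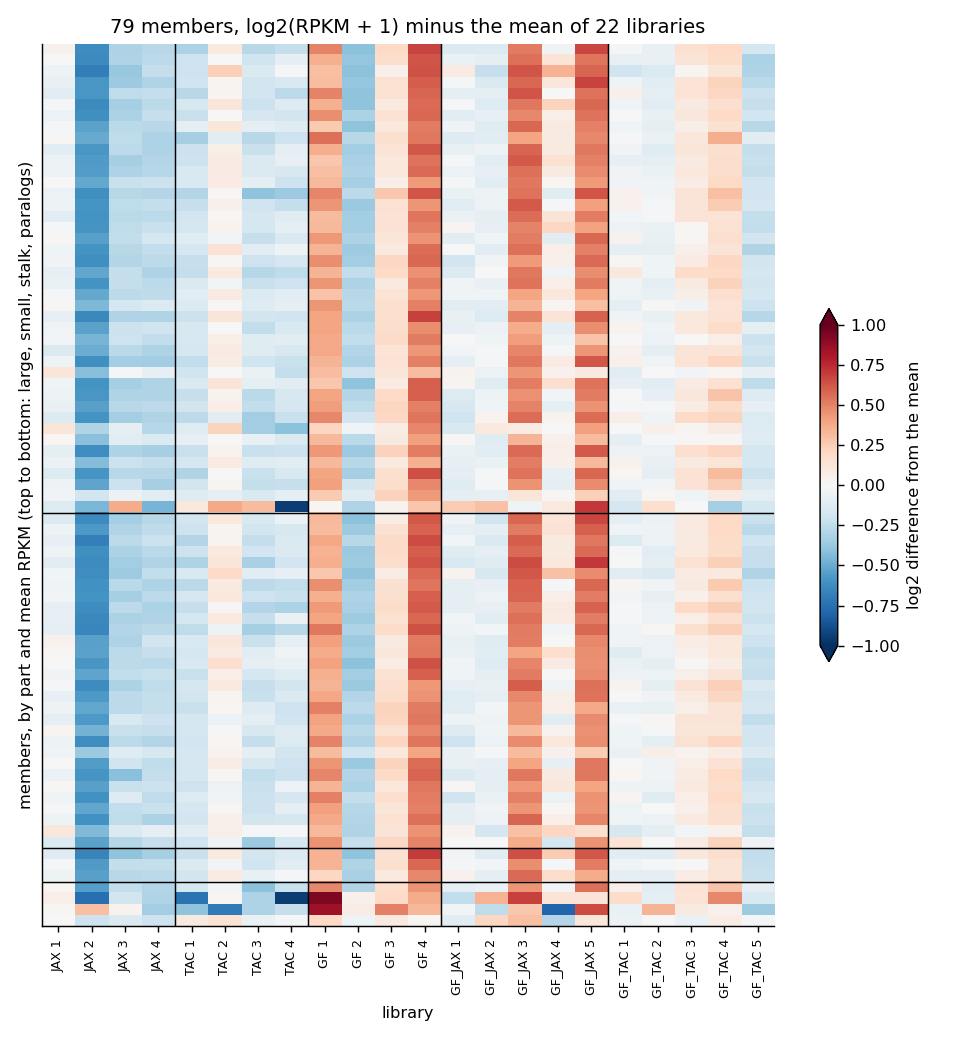
Each row is 1 of 79 ribosomal protein genes, from the large subunit at the top to the paralogs at the bottom with lines between the parts, and each column 1 of 22 libraries by group, and colour is log2(RPKM + 1) minus the gene's mean. Rpl26 and Rps27 are left out because their values jump between separate levels. Bands run through nearly all rows, with GF 4, GF_JAX 3 and GF_JAX 5 high and JAX 2 low.

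Summed over the 81 genes, the RPKM were 34230.4, 23056, 29046 and 29392 in JAX 1 to 4, and 30649.7, 35706, 30081 and 31550.0 in TAC 1 to 4. GF 1 to 4 had 44892, 27422, 38100.2 and 51684. GF_JAX 1 to 5 had 32796, 33047, 49279, 36062 and 49178, and GF_TAC 1 to 5 had 33592, 32909, 36638, 38853 and 30322. GF 4 was the highest library and JAX 2 the lowest, GF 2 lay below all TAC libraries, and the range of GF covered that of GF_TAC. With n = 4, JAX had a mean ± SD of 28931 ± 4576, TAC of 31997 ± 2546 and GF of 40525 ± 10347. With n = 5, GF_JAX had 40072 ± 8457 and GF_TAC 34463 ± 3329. The mean of GF was 1.40 times that of JAX and 1.27 times that of TAC. These genes held 4.34% to 7.08% of the summed RPKM of a library. In bulk liver, fewer cells of a type and less RNA per cell cannot be told apart.

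The sums moved with the depth of the libraries. Whole reads could be recovered from the steps in the RPKM for 13529 of 17363 symbols above 0 (77.9%, within 0.02 reads) and for 70 of the 81 members, which gave 1.17 to 2.68 M recovered reads per library and each library's depth relative to JAX 1. That relative depth was 1, 1.66, 1.38 and 1.22 in JAX, 1.07, 0.815, 1.002 and 0.935 in TAC, and 0.909, 1.54, 1.02 and 0.613 in GF. It was 0.856, 1.25, 0.589, 0.630 and 0.609 in GF_JAX and 1.20, 1.19, 0.964, 0.921 and 1.34 in GF_TAC. The library with the lowest sum, JAX 2, was the deepest, and the 4 libraries with the lowest depth, GF_JAX 3, GF_JAX 5, GF 4 and GF_JAX 4, included the 3 with the highest sums. GF_JAX 4 stood apart from them at 36062.

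**Figure D2:**
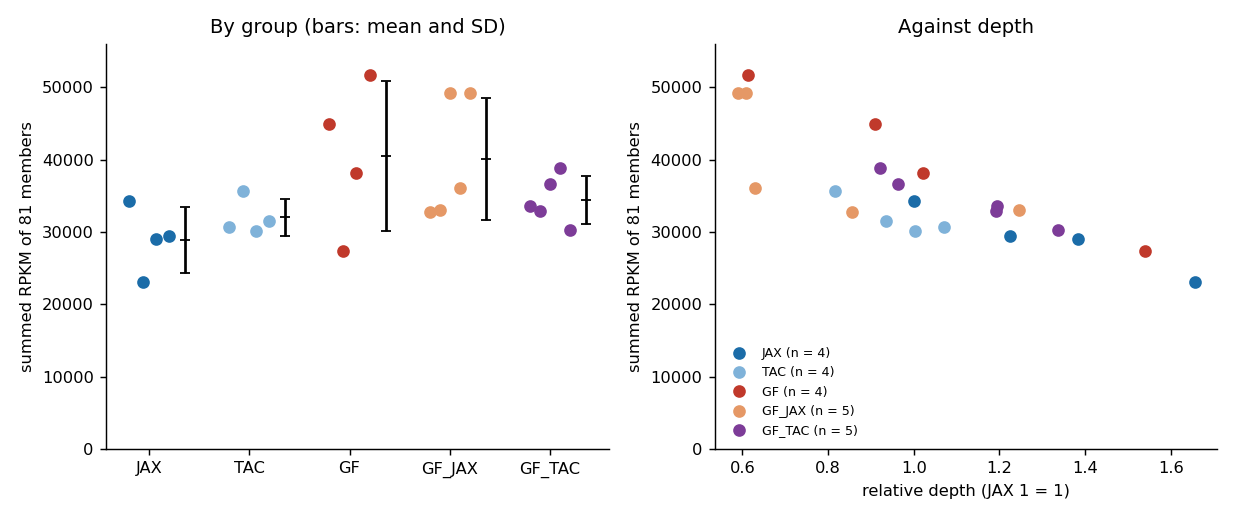
Left, the summed RPKM of the 81 ribosomal protein genes in each library by group, with mean and SD. Right, the same sums against the depth of the library relative to JAX 1, where the sums fall from 51684 at a depth of 0.613 to 23056 at 1.66.

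Gene by gene, log2(RPKM + 1) had a median r of -0.820 with log2 relative depth over the 22 libraries (lowest -0.967, highest 0.195), against 0.07 over the 12264 genes tested. In 75 of 81 members r was below -0.5, which 8.13% of all tested genes reached. Taken as deviations from the group means, so that differences between groups play no part, the median was -0.868 and again 75 members were below -0.5, against 9.03% of all genes. Abundant genes outside the set, with a mean RPKM of at least 100, also had a negative median r over the 22 libraries. It was -0.512 in 410 genes of at most 1000 bases and -0.555 in 1072 longer ones. At 5 to 100 RPKM it was -0.037 in 386 short genes and 0.137 in 6463 longer ones. RPKM already divide by depth, so these correlations describe what is left after that division, and the points share the libraries.

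The reads themselves show the relation directly. Rplp1, an acidic stalk protein, had 509, 584, 582 and 540 reads in JAX, 510, 485, 490 and 474 in TAC, 644, 649, 631 and 555 in GF, 468, 637, 512, 419 and 522 in GF_JAX, and 617, 608, 579, 578 and 628 in GF_TAC. Its reads spanned 1.55-fold between the highest and the lowest library while relative depth spanned 2.81-fold. Rps6, the small subunit protein phosphorylated below mTORC1, had 490 to 971 reads (1.98-fold). Over the 70 genes with recovered reads the median span was 1.91-fold, from 1.45-fold for Rpl41 to 5.68-fold for Rps4l.

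**Figure D3:**
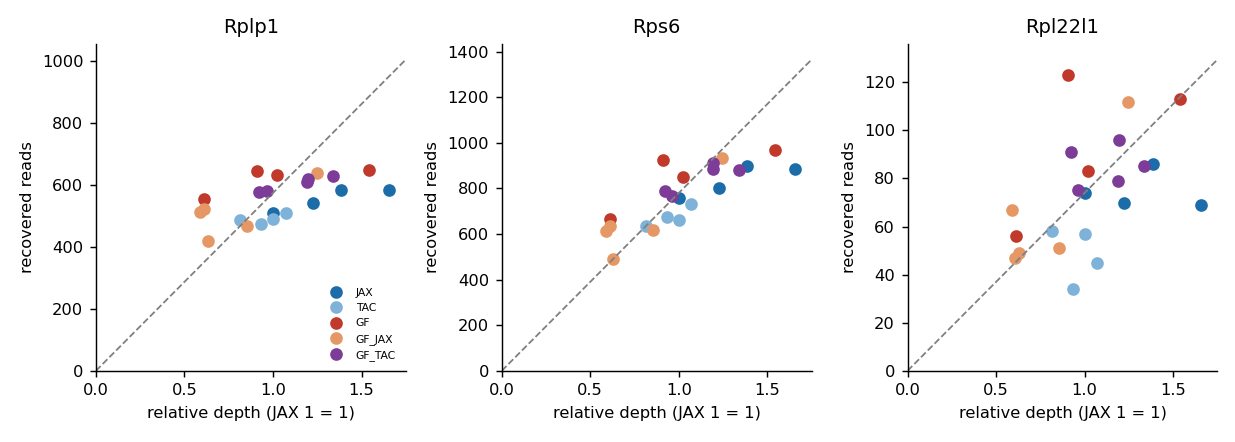
Reads recovered per library for Rplp1, Rps6 and Rpl22l1 against relative depth, coloured by group, with a dashed line for reads proportional to depth. Reads of Rplp1 run nearly level, from 419 to 649, while depth spans 2.81-fold.

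These transcripts are short and heavily covered. Their median length was 706 bases, from 329 for Rps28 to 5134 for Rps15a, against 2437 over all genes with a length. In the library where a gene had most reads, members held a median of 0.945 reads per base of transcript (0.0565 to 1.42, over 1 in 30 genes), against 0.0566 for all genes. Over the whole table, 2 of 13318 transcripts exceeded 2 reads per base, which equals 1 read per position on each strand, and Alb reached 1.89. Whether reads that share a start were removed is not given in the sources used here. When each value was corrected for shared starts from its reads and length, the median r with depth became -0.673, with 72 members below -0.5. With transcript ends shortened by 100 bases, a setting chosen after the data were seen, it became -0.596, with 63 below -0.5. The lower 35 and the upper 35 genes by mean reads per base had a median r of -0.791 and -0.875.

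Libraries also differed in how RPKM depended on transcript length. Over 5738 genes outside the set, log2 RPKM was regressed on log2 length, and the slope lay between -0.363 and -0.242 in JAX, TAC, GF_JAX 1 and GF_JAX 4, and between -0.577 and -0.389 in the 12 other libraries. The slopes of JAX and TAC did not overlap those of GF and GF_TAC, so short transcripts read relatively higher in the germ-free and GF_TAC libraries. The median r of the members with this slope was -0.606, against -0.07 over all genes tested. The length slope therefore differed between the vendor groups and GF or GF_TAC. Mean relative depth was 1.32 in JAX, 0.956 in TAC, 1.02 in GF, 0.786 in GF_JAX and 1.12 in GF_TAC, so it differed little between GF and TAC. The part of depth and length in the differences below was not tested apart from the fits given beside each.

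In germ-free liver, ribosomal protein genes were higher than in JAX. Rpl27a, a large subunit protein, had 204, 148, 177 and 182 RPKM in JAX, 313, 196, 259 and 325 in GF, 186, 208, 176 and 192 in TAC, 196, 229.6, 330.4, 229 and 330.5 in GF_JAX, and 235, 218, 257, 261 and 203 in GF_TAC. GF 2 fell inside the range of JAX and the other GF libraries lay above it. It rose by 0.60 (SE 0.165, adjusted p = 0.0152) on the log2(RPKM + 1) scale, limma's moderated test with Benjamini-Hochberg adjustment over all 12264 genes, as for every adjusted p here. Of the 81 genes, 40 were called higher and 0 lower in GF than in JAX, where 11.7% of all tested genes were called higher. The members' median difference was 0.47, with 80 of 81 positive, against 0.01 over all genes. An unadjusted p under 0.05 was found in 75 members and in 4789 of all 12264 tested genes.

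By role, 22 of 43 large subunit genes, 15 of 31 small subunit genes, 2 of 3 stalk genes and 1 of 4 paralogs rose. Rps15a, a small subunit protein, had 16.1, 11.9, 14.5 and 15.02 RPKM in JAX and 24.6, 14.99, 20.7 and 25.5 in GF (0.53, SE 0.151, adjusted p = 0.0184). Rps6 had 255, 179.8, 218 and 221 RPKM in JAX and 343, 212, 281 and 366 in GF (0.44, SE 0.155, adjusted p = 0.0452). In both, GF 2 lay within the JAX range. The other genes with the smallest p were Rps13 (0.51), Rpl21 (0.50), Rps23 (0.57), which lines the decoding centre, Rpl14 (0.51), Rpl10a (0.45), Rps12 (0.59), Rpl6 (0.47), Rps25 (0.54), Rpl22 (0.29) and Rpl23 (0.53), with adjusted p from 0.0228 to 0.0318.

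In the stalk, Rplp1 had 782, 542, 646 and 677 RPKM in JAX and 1089, 647, 949 and 1391 in GF (0.58, SE 0.201, adjusted p = 0.0414), and Rplp2 rose by 0.46 (adjusted p = 0.0463). Rplp0, the scaffold that holds them, had 327 ± 44.6 RPKM in JAX and 437 ± 97.4 in GF (SD, n = 4 each) and did not pass (0.40, adjusted p = 0.0606). Rpsa, which also serves as a laminin receptor, rose by 0.50 (adjusted p = 0.0374), and Rps19, which is mutated in Diamond-Blackfan anemia, rose by 0.47 (adjusted p = 0.0452). The 5S rRNA partners Rpl5 (0.30, adjusted p = 0.0835) and Rpl11 (0.47, 0.0702) did not pass. Nor did Rpl10, the last large subunit protein to join (0.46, 0.0559), Rpl13a, known for a role in translational silencing (0.45, 0.0675), Rpl3, at the peptidyl transferase centre (0.23, 0.180), Rps3 (0.29, 0.118) or Rpl38 (0.53, 0.0759). The differences at the lower end were Rpl30 (0.18, adjusted p = 0.599) and Rpl7l1 (0.21, 0.135), and the highest were Rpl22l1 (0.68, 0.0354), Rpl27a and Rpl35a (0.59, 0.0322).

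No member had all GF libraries above all JAX libraries, while 12.7% of all tested genes did. GF 2, whose relative depth was 1.54, had a sum of 27422, inside the JAX range of 23056 to 34230.4. The number of members called was 76 without GF 2, but 0 without JAX 2, without GF 1 or without GF 4, 4 without JAX 4, 7 without GF 3 and 9 without JAX 3. Over all genes the higher calls were 1905 without GF 2, and 782, 671 and 758 without JAX 2, GF 1 and GF 4. They were 732, 935 and 1060 without JAX 4, GF 3 and JAX 3. Members called were 6 with relative depth as a term of the fit, 0 with the length slope as a term, and 67 after the correction for shared starts. In these fits 721, 130 and 1521 of all tested genes were called higher. The members' median difference was 0.22 with depth as a term, 0.15 with the slope and 0.03 with both. Without JAX 2, JAX 3 and GF 4, which brings the depths of both groups together and was chosen after the data were seen, the median was 0.22 and 0 members were called.

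The scale of the comparison depends on how libraries are put level. Over all tested genes GF had 1430 higher and 1509 lower calls against JAX (48.7% of calls higher), 556 and 2506 (18.2%) when libraries were rescaled to a common sum, and 2059 and 1012 (67.0%) with a common median. The median of all genes moved to -0.17 and 0.10 in these scalings, and the members stood 0.46, 0.43 and 0.48 above it. They were called higher in 40, 21 and 54 cases and lower in 0 cases under each of these.

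Genes outside the set that share its length and level showed shifts of the same size. Among 410 tested genes of at most 1000 bases and a mean RPKM of at least 100, the median difference of GF from JAX was 0.44 and 43.9% were called higher. Among 386 equally short genes with a mean RPKM of 5 to 100 it was 0.34, with 25.1% called. Among 1072 longer abundant genes it was 0.20, with 26.8%, and among 6463 longer genes of 5 to 100 RPKM it was -0.06, with 9.65%. The members, with a median of 0.47 and 40 of 81 called, thus lay close to the short abundant genes. Within the set, the 35 genes with fewer and the 35 with more reads per base had the same median difference of 0.47.

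Against TAC the shift was smaller. The members' median difference of GF from TAC was 0.31 against 0.02 over all genes, 80 of 81 were positive, and 6 were called higher and 0 lower. An unadjusted p under 0.05 was found in 23 members and in 4850 of all 12264 tested genes, a smaller share among the members. Of all tested genes 11.1% were called higher. The 6 were Rpl22l1, Rps4l, Rpl22, Rpl27a, Rps15a and Rpl35a, a list that holds 2 of the 4 paralogs and the parent gene of 1 of them.

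Rpl22l1, the paralog of Rpl22, had 62.4, 106, 84.4 and 54.0 RPKM in TAC and 201, 109, 121 and 136 in GF, with no overlap. It had 109.9, 61.9, 92.3 and 84.9 in JAX, 88.5, 133, 169, 115 and 115 in GF_JAX, and 119, 98.5, 116, 147 and 94.4 in GF_TAC. The difference of GF from TAC was 0.89 (SE 0.227, adjusted p = 0.0100). These values rest on 34 to 123 reads per library.

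Rps4l, a paralog of the X-linked small subunit gene Rps4x, had 60.5, 48.8, 64.7 and 68.2 RPKM in TAC and 145, 84.5, 114 and 101 in GF, again with no overlap. It had 81.2, 99.0, 82.3 and 62.7 in JAX, 78.9, 67.3, 97.0, 45.8 and 127 in GF_JAX, and 76.6, 102, 85.3, 82.8 and 62.7 in GF_TAC. It rose in GF against TAC by 0.85 (SE 0.229, adjusted p = 0.0127), and its difference from JAX, 0.44, did not pass (adjusted p = 0.159). It rested on 53 to 301 reads, and Rps4x had 328 ± 23.0 RPKM in TAC and 397 ± 69.2 in GF (SD, n = 4 each, adjusted p = 0.107).

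Rpl22, which binds the EBER RNA of a herpesvirus and has been linked to T cell development, had the smallest difference of the 6. It had 88.2, 79.1, 86.6 and 83.9 RPKM in JAX, 82.3, 84.4, 80.97 and 84.0 in TAC, 108, 82.7, 106 and 122 in GF, 84.4, 85.0, 97.98, 90.9 and 107 in GF_JAX, and 83.7, 91.2, 87.7, 95.7 and 84.7 in GF_TAC. GF 2 lay inside the TAC range and the other GF libraries above it (0.32, SE 0.0948, adjusted p = 0.0206). Rpl27a rose by 0.49 (adjusted p = 0.0357), Rps15a by 0.43 (0.0444), and Rpl35a, at 383 to 511 RPKM in TAC and 422 to 783 in GF, by 0.54 (0.0446). The smallest differences were those of Rpl7l1 (0.03) and Rpl30 (0.05).

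Rpl22l1 and Rps4l were the 2 members whose GF and TAC libraries did not overlap, against 11.6% of all tested genes with GF higher. Of 15 other settings of the fit each was called in 13, with adjusted p from 0.00131 to 0.644 for Rpl22l1 and from 0.00127 to 0.577 for Rps4l. Of 22 fits without 1 library, Rpl22l1 was called in 22 and Rps4l in 21. The number of members called was 62 without GF 2, 1 without GF 1, 2 without TAC 3 or GF 4, and 3 without TAC 1, TAC 4 or GF 3. It was 76 with depth as a term, 0 with the length slope and 39 after the correction for shared starts. In these fits 1800, 26 and 1568 of all tested genes were called higher, and 1806 were without GF 2 and 741 without GF 1. The members' median difference was -0.07 with the slope as a term and 0.07 with slope and depth.

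Over all genes GF had 1362 higher and 1615 lower calls against TAC (45.8% higher), 808 and 1643 (33.0%) with a common sum and 1611 and 1350 (54.4%) with a common median. The members stood 0.29, 0.27 and 0.30 above the median of all genes, and 6, 8 and 5 were called. The short abundant genes outside the set had a median difference of 0.34 with 28.0% called higher, the short genes of 5 to 100 RPKM 0.42 with 32.6%, the longer abundant genes 0.04 with 10.5% and the longer genes of 5 to 100 RPKM -0.05 with 10.8%. The 6 of 81 members called are a smaller share than in each of these strata, which is a description with no test. Both comparisons share the GF libraries, so their values are given side by side and not as 2 independent results.

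**Figure D4:**
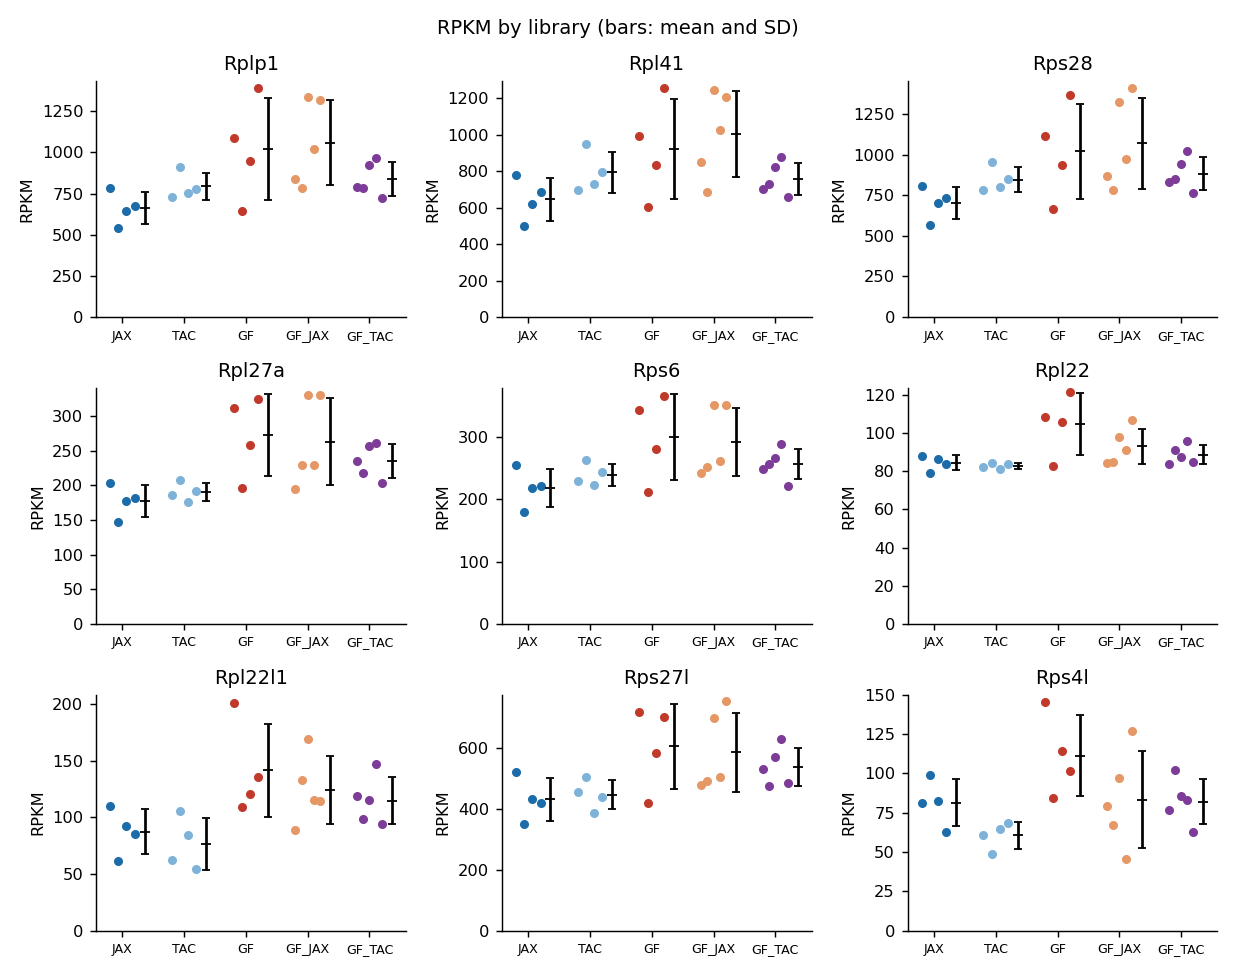
RPKM per library by group for 9 ribosomal protein genes, with mean and SD. Rpl22l1 and Rps4l have all 4 GF libraries above the 4 TAC libraries, and in Rplp1, Rpl27a and Rps6 GF 2 falls among the vendor libraries.

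Sums of cell type markers are given for the same groups, with no test. The summed RPKM of 6 of 7 B and plasma cell markers in the table, mostly Cd74, were 55.6 to 99.0 in JAX, 55.7 to 96.9 in TAC, 98.8 to 142 in GF, 123 to 158 in GF_JAX and 103 to 156 in GF_TAC, with Ms4a1 at 0 in 9 libraries. Kupffer cell markers (6 of 7 in the table) summed to 44.6 to 98.6 in JAX, 52.5 to 95.4 in TAC, 83.8 to 105 in GF, 86.4 to 121 in GF_JAX and 61.4 to 105 in GF_TAC. Stellate cell markers (6 of 6) summed to 85.1 to 108 in JAX, 91.2 to 109.6 in TAC, 106 to 144 in GF, 100 to 133 in GF_JAX and 119 to 150 in GF_TAC. Erythroid markers (6 of 6) summed to 227 to 313 in JAX, 238 to 366 in TAC, 316 to 404 in GF, 222 to 504 in GF_JAX and 220 to 327 in GF_TAC. Among them, Hba-a1 ranged from 0.246 to 41.2 RPKM and Hbb-b1 from 0.0652 to 148 over the libraries, so the erythroid sums are uncertain. Endothelial markers (5 of 5) summed to 91.0 to 124 in JAX, 94.4 to 125 in TAC, 115 to 138 in GF, 114 to 140 in GF_JAX and 85.6 to 122 in GF_TAC. In the same order, cholangiocyte markers (5 of 5) summed to 40.8 to 56.0, 33.1 to 45.6, 48.8 to 61.1, 35.2 to 104 and 55.4 to 73.5. T and NK cell markers (6 of 7) summed to 2.22 to 5.26, 2.20 to 6.69, 4.15 to 8.28, 3.65 to 8.63 and 3.73 to 8.75. Neutrophil markers (4 of 5) summed to 2.17 to 12.1, 3.13 to 11.7, 1.25 to 17.2, 5.80 to 18.8 and 0 to 11.9. The 8 hepatocyte markers summed to 2741 to 4105 in JAX, 3979 to 4998 in TAC, 2988 to 6069 in GF, 3457 to 6235 in GF_JAX and 3209 to 4283 in GF_TAC, and none was at 0 in any library. Their part in the difference of ribosomal protein genes was not tested.

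Colonisation of germ-free mice left no member past the threshold. For GF_JAX against GF, 0 of 81 were called in either direction (0.342% of all genes called higher, 0.269% lower), the median difference was -0.01 and 33 were positive. An unadjusted p under 0.05 was found in 1 member and in 1945 of all 12264 tested genes. For GF_TAC against GF, 0 were called (0.171% higher and 0.0326% lower over all genes), the median was -0.19 and all 81 differences were negative. Here 1 member and 1041 of all tested genes had an unadjusted p under 0.05. The summed RPKM were 0.989 and 0.850 of those of GF. Rps4l had the lowest difference in GF_JAX (-0.47, adjusted p = 0.296) and also in GF_TAC (-0.43), leaving out Rpl26 and Rps27, and at the other end stood Rpl30 (0.26), Rpl41 (0.13) and Rps2 (0.13) in GF_JAX and Rpl7l1 (-0.08) and Rpl30 (-0.11) in GF_TAC. Both comparisons share the GF libraries. Without 1 library the median for GF_JAX ranged from -0.18 without GF 2 (1 of 81 positive) to 0.10 without GF 4 (72 positive), and it was 0.12 without GF_JAX 1 and GF_JAX 4. With depth as a term it became -0.23, with 1 member and 45 of all tested genes called lower, and 66 members had an unadjusted p under 0.05. For GF_TAC the median was -0.37 without GF 2, where 65 members had an unadjusted p under 0.05, and -0.08 without GF 4, and 44 members had such a p with depth and slope as terms. How many of all genes had such a p in these fits is not given here, so the counts of 66, 65 and 44 have no share beside them.

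Between vendors and between donors the differences ran in opposite directions and neither passed. TAC was above JAX in 74 of 81 genes, with a median of 0.15 and 0 called in either direction (0.179% of all genes called higher, 0.114% lower) or with an unadjusted p under 0.05. Of all 12264 tested genes, 1102 had such a p. GF_TAC was below GF_JAX in 78 of 81, with a median of -0.17 and 0 called (0.0571% higher, 0.114% lower) or with an unadjusted p under 0.05. Between donors, 1635 of all tested genes had such a p. Rpl41, the shortest ribosomal protein, had 645 ± 118 RPKM in JAX and 794 ± 112 in TAC (SD, n = 4 each), and 1004 ± 237 in GF_JAX and 759 ± 89.7 in GF_TAC (n = 5 each). Its differences were 0.31 and -0.38 (adjusted p = 0.378 for the donors), those of Rps2 0.28 and -0.32, and Rps28 differed by 0.27 between vendors. The vendor median was 0.06 without JAX 2, 0.10 without TAC 2 and 0.08 after the correction for shared starts. The donor median was -0.09 without GF_JAX 3, -0.10 without GF_JAX 5, -0.32 without GF_JAX 1 and GF_JAX 4 together, -0.08 after that correction and -0.35 with the length slope as a term, where 71 members had an unadjusted p under 0.05 and 0 were called. How many of all genes had such a p with the slope as a term is not given here. Rps4l went the other way between vendors (-0.41, adjusted p = 0.642) and by 0.04 between donors.

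The interaction, the donor difference minus the vendor difference, had a median of -0.32 over members against 0.02 over all genes. None of the 81 passed (0.481% of all genes called higher, 1.0% lower). An unadjusted p under 0.05 was found in 6 members and in 2142 of all 12264 tested genes, a smaller share among the members. The lowest were Rpl41 (-0.68, adjusted p = 0.201), Rps2 (-0.60) and Rplp1 (-0.58, adjusted p = 0.268). JAX was the deeper vendor group, with a mean relative depth of 1.32 against 0.956 in TAC, and GF_TAC the deeper recipient group, with 1.12 against 0.786. With depth as a term the medians changed sign, to -0.10 between vendors, 0.14 between donors and 0.26 for the interaction. With a common sum the median of all genes was 0.19 for the interaction and the members' median stood 0.32 below it.

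**Figure D5:**
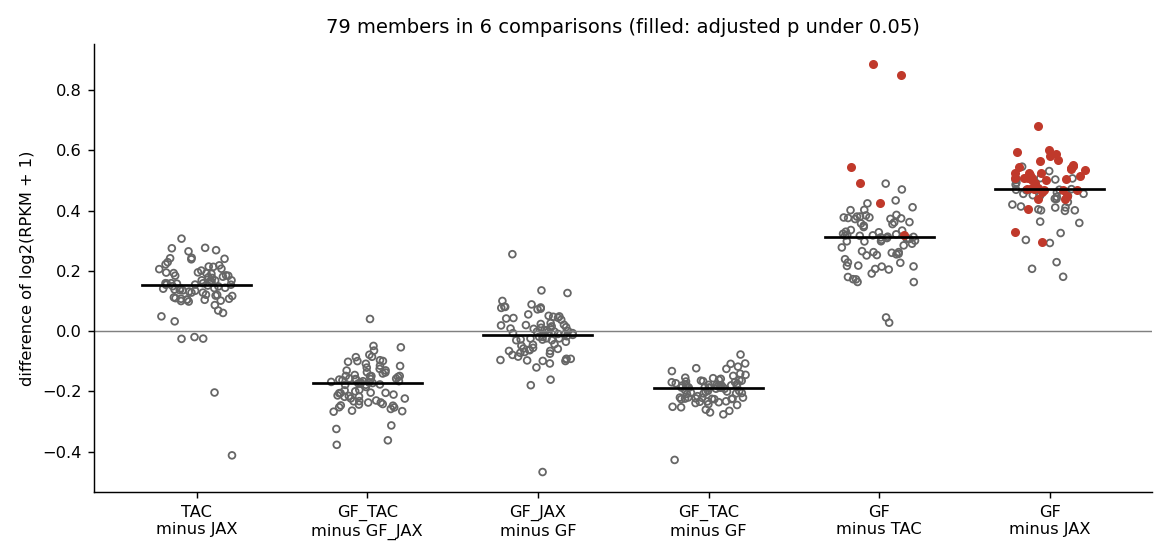
Differences of group means on the log2(RPKM + 1) scale for 79 ribosomal protein genes in 6 comparisons, with filled points for an adjusted p under 0.05 and a black line for the median of all 81. Points lie mostly above 0 for GF against JAX (median 0.47) and against TAC (0.31) and around or below 0 for the recipients against GF.

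Across the 5 groups, the mean RPKM was highest in GF for 53 genes, in GF_JAX for 27 and in JAX for Rps27. It was lowest in JAX for 74 genes, in TAC for Rpl3, Rpl22, Rpl22l1, Rpl26, Rpl34 and Rps4l, and in GF_TAC for Rps27. The order of neighbours was mostly within the spread: for Rplp1 the means were 662 ± 98.8 in JAX, 794 ± 82.5 in TAC, 837 ± 102 in GF_TAC, 1019 ± 309 in GF and 1059 ± 258 in GF_JAX, and the step from JAX to TAC exceeded the larger SD of its pair while the other steps did not. For Rpl22l1 they were 76.6 ± 23.2 in TAC, 87.2 ± 19.9 in JAX, 115 ± 20.8 in GF_TAC, 124 ± 29.7 in GF_JAX and 142 ± 41.1 in GF. Only its step from JAX to GF_TAC passed the larger SD of the pair compared.

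Of the remaining paralogs, Rps27l, a p53 target, had 431 ± 70.0 RPKM in JAX and 606 ± 139 in GF (SD, n = 4 each, adjusted p = 0.0550), and 447 ± 48.5 in TAC. Rpl7l1 stayed between 50.7 and 77.1 RPKM in all libraries, and its parent Rpl7 rose in GF against JAX by 0.44 (adjusted p = 0.0439) and not against TAC (0.33, adjusted p = 0.118).

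Rps27 and Rpl26 jumped by more than 10-fold within groups, and no fold is given for them. Rps27 was listed at 857, 27.1, 670.4 and 699 RPKM in JAX, 799, 16.5, 20.03 and 764 in TAC, 26.0, 17.0, 24.0 and 1225 in GF, 17.4, 709.8, 15.9, 21.3 and 19.0 in GF_JAX, and 23.0, 22.6, 21.99, 25.1 and 663 in GF_TAC. Its values fell either between 15.9 and 27.1 or from 663 upward, in every group. Rpl26, a protein known to bind p53 mRNA, was listed at 66.8, 19.8, 25.0 and 30.3 in JAX, 0.0116, 0.00865, 92.0 and 32.5 in TAC, 33.0, 97.3, 30.9 and 52.3 in GF, 0.00884, 51.2, 98.9, 0.00906 and 42.8 in GF_JAX, and 79.9, 91.4, 35.5, 0 and 0.00854 in GF_TAC. Values near 0 stood beside values over 90 in the same group. Both are among the 11 members whose values were no whole multiples of reads, with Rpl19, Rpl22, Rpl30, Rpl31, Rpl34, Rpl35a, Rpl38, Rps24 and Rps27a.

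The rest of the translation machinery was read from lists chosen with earlier results of these data known. Beside all their counts for GF against JAX stand the 11.7% of all tested genes called higher and the 12.3% called lower. With the length slope as a term, 130 of all tested genes were called higher and 178 lower against JAX, in place of 1430 and 1509. Against TAC 26 and 26 were, in place of 1362 and 1615. The lists are given without that term, and the part of transcript length in their differences was not tested. In GF, 6 of 21 elongation factor and other 5-TOP genes rose and 0 fell (median 0.36), among them Eif3f (0.36, adjusted p = 0.00742) and Eif3h (0.35), subunits of the initiation factor that joins mRNA and small subunit, Eef1d (0.44), of the elongation factor exchange complex, and Naca (0.41), which binds nascent chains. Of 35 initiation factors 4 rose, a share close to that of all genes, and 0 fell (median 0.09): Eif2s2 (0.59), Eif5b (0.59), Eif3a (0.29) and Eif3d (0.26). Of 69 ribosome biogenesis factors 5 rose and 5 fell (median 0.03), in either direction a smaller share than over all genes, with Nop10 (0.50), of the pseudouridylation complex, among the former and Tsr1 (-0.72, adjusted p = 0.00425), Utp18 (-0.51) and Nmd3 (-0.46), an export adaptor of the large subunit, among the latter.

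In the mTORC1 list 7 of 35 genes rose and 7 fell in GF against JAX, where 11.7% of all genes were called higher and 12.3% lower. Mtor, the kinase itself, fell from 18.6 ± 1.90 to 10.02 ± 1.32 RPKM (SD, n = 4 each, difference -0.83, adjusted p = 0.000770), Akt1 fell (-0.40, adjusted p = 0.00226) and Eef2k, the kinase that inhibits elongation factor Eef2, fell (-0.73, adjusted p = 0.00624). Ddit4, an inhibitor of mTORC1, rose by 1.48 (adjusted p = 0.00638). Of 12 tested genes for p53 sensing of free ribosomal proteins, Bax rose (0.53) and Sesn2 fell (-0.997). Protein activity was not measured.

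Mitochondrial ribosomal proteins translate the mRNAs of the mitochondrial genome. In GF against JAX 35 of 77 rose, where 11.7% of all genes did, 0 fell and the others did not pass, with a median of 0.35 and 72 differences positive. In 36 all GF libraries were above all JAX libraries, against 12.7% of all tested genes. Mrpl50 rose by 0.35 (adjusted p = 0.00190), Mrpl38 by 0.49, Mrpl35 by 0.53 and Mrpl46 by 0.47. Of 75 nuclear-encoded respiratory chain subunits 17 rose and 1, Ndufs1, fell (-0.50), with a median of 0.45 and with Ndufa7 (0.62), Ndufb6 (0.54) and Ndufa11 (0.54) among those that rose.

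Against TAC, where 11.1% of all tested genes were called higher and 13.2% lower, 33 of 77 mitochondrial ribosomal protein genes rose and 0 fell in GF (median 0.35), with Mrpl35 (0.70), Mrpl23 (0.78), Mrpl33 (0.73) and Mrpl46 (0.48) among them, and 3 of 75 respiratory chain genes rose and 1 fell. Of the 21 genes of the 5-TOP list 4 rose and 1 fell, with Gas5, a non-coding host of small nucleolar RNAs (0.91), Eif3f (0.36), Eif3h (0.32) and Eif4b (-0.33) named. Of the 35 initiation factors 2 rose and 6 fell, the latter including Eif4g1 (-0.52), Eif4g2 (-0.45), Eif4g3 (-0.58) and Eif3b (-0.31). Of the 69 biogenesis factors 8 rose and 5 fell, a share close to that of all genes for the former and smaller for the latter, with Tsr1 (-0.60) and Utp18 (-0.48) lower again and Riok1 (0.50) and Mrto4 (0.46) higher. Of the 35 genes of the mTORC1 list 2 rose, Lamtor5 (0.42) included, and 11 fell, with Akt1 (-0.49, adjusted p = 0.000627), Mtor (-0.76) and Sesn2 (-0.95) among them. Of the 12 genes of the p53 list 1 rose and 1 fell, Bax (0.44) and Sesn2.

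Between vendors, between donors and for recipients against GF, 0 genes of any of these 7 lists passed in limma's test. An unadjusted p under 0.05 was found in 0 to 17 genes per list, and in 1041 to 1945 of all 12264 tested genes. For the interaction Eif4g1 (-0.62, adjusted p = 0.0377) and Ddit4 (-1.86, adjusted p = 0.0485) passed and no other gene of the lists did.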

How the data were processed

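Poly(A) RNA libraries (ThruPLEX kit, per the labels' protocols) of 22 liver samples were analysed. The deposited values are RPKM made by the authors, in 1 table of 24397 entries. The submitters' processing notes name Bowtie 1.0.0, Cuffdiff 2.1.1 and build mm9. Their roles, the annotation, duplicate removal and the treatment of reads matching several places are not given in the sources used here.

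Differences are contrasts of group means from one limma 3.58.1 fit with trend (R 4.3.3) to log2(RPKM + 1), with a pseudocount of 1, which understates changes of low genes. Tested were 12264 genes, all 81 members included, that reached an RPKM of 1 in 4 or more libraries. Tests were two-sided, and p-values were adjusted by Benjamini and Hochberg across all tested genes, with a threshold of 0.05. The fit was also run on simulated data with independent noise for each gene and library and no effect of depth or length. That run therefore does not test the fit for genes that move together with depth or length, as the members do. Reads were recovered from the steps of low RPKM values. The resulting relative depth equalled median ratios over 8426 genes within 1.11%, so it is a scaling factor and may differ from total reads. Transcript lengths are the length behind an RPKM plus 208 bases, the offset that matched GENCODE M21 lengths (GRCm38.p6) for 769 of 5875 genes, against 185 for the next offset. Tables and figures used Python 3.11.15. Depth limits precision through the recovered reads, and the spread between libraries includes it.

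Members and gene lists were chosen with earlier results of these data known. Named were, per comparison, up to 12 called members with the smallest p, the 3 largest and 3 smallest differences, the highest and lowest levels, members of known role and up to 4 genes per related list. Rpl26 and Rps27 were left out of these ranks, and some genes are not reported here. Replicate numbers did not pair libraries. Alternatives were other scalings, filters, pseudocounts and covariates, correction for shared starts, quality weights, a replicate block and leaving libraries out.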

Additional observations from a re-analysis of the deposited data

Results flagged for a closer look

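A library far from the others of its group was found in 18 of 410 sets (each of the 81 members, and their summed RPKM, in each of the 5 groups), where chance gives about 1 in 20. Of these sets, 5 concern members named above for a known role or for their differences between groups, and they are given first. Rps27 was listed at 1225.5 RPKM in GF 4 (17.0 to 26.0 in the other GF libraries), at 709.77 in GF_JAX 2 (15.9 to 21.3) and at 663.43 in GF_TAC 5 (21.99 to 25.1). Rpl3 had 384.76 RPKM in GF_JAX 3, against 272 to 302 in the other GF_JAX libraries. Rpsa had 259.56 in TAC 2, against 219 to 223 in the other TAC libraries, and TAC 2 had the lowest relative depth of its group, 0.815. The remaining sets include TAC 2 again, for Rpl38 (1119 RPKM, against 838 to 886 in the other TAC libraries) and Rpl31 (165, against 137 to 138). They also include it for Rps27a (349, against 287 to 296) and Rpl29 (457, against 348 to 360). No member passed the test of the interaction.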

How the results depend on the processing

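The 40 members called higher in GF than in JAX became 13 without the filter on low values, 21 with a common sum, 6 with relative depth, 0 with the length slope and 0 with both as terms, 67 after correction for shared starts (66 with ends shortened), 77 with library weights and 4 in a fit of GF and JAX alone. Without JAX 2, JAX 3 and GF 4 together, a setting chosen after the data were seen, 0 were called. The 6 against TAC became 3 without the filter, 76 with depth, 0 with the slope, 0 with both, 39 after correction for shared starts (53 with ends shortened), 44 with weights and 3 in a fit of these groups alone. Over all tested genes, higher calls against JAX were 721 with depth, 130 with the slope, 158 with both and 1521 after correction for shared starts. Against TAC they were 1800, 26, 61 and 1568. With a common sum they were 556 against JAX and 808 against TAC. Calls over all genes are not given here for the fits without the filter, with ends shortened, with weights or with a replicate block. Nor are they given for the fits of the compared groups alone or without JAX 2, JAX 3 and GF 4. The member counts of those fits therefore have no share beside them. Leaving out 1 library gave 0 to 76 members called against JAX and 1 to 62 against TAC. With depth as a term 1 member was called lower in GF_JAX than in GF, and for the interaction 1 was called lower with the slope and 1 higher with ends shortened. With the replicate number as a replicate block 29 were called against JAX and 4 against TAC. The numbers do not pair the libraries: deviations of same-numbered libraries correlated at -0.121 to 0.150 over 41 pairs (median 0.0126), with 7 over 0.1.

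Median differences with depth as a term were -0.1049 for TAC minus JAX, 0.1429 for GF_TAC minus GF_JAX, 0.2229 for GF minus JAX and 0.2575 for the interaction. With the slope they were -0.3545 for GF_TAC minus GF_JAX, 0.1475 for GF minus JAX, -0.0741 for GF minus TAC and -0.5634 for the interaction, and with both 0.0039, 0.0314, 0.0704 and 0.0438. Without JAX 2, JAX 3 and GF 4 the median of GF minus JAX was 0.2166.

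Single values that changed sign were not called in the comparisons above. Between vendors, with depth as a term, Rpl41 became -0.0490, Rps2 -0.0399 and Rps28 -0.0485, and with depth and slope Rpl41 -0.0195 and Rps2 -0.0069. Between donors, with depth Rpl41 became 0.0722 and Rps2 0.0748, with both Rpl41 0.0033, and Rps4l -0.1309 with the slope, -0.0811 with both and -0.2137 without GF_JAX 1 and 4. In GF_JAX against GF, Rpl41 became -0.1552 with depth, -0.1083 with both, -0.0014 with weights and -0.0759 with ends shortened, and Rps2 -0.1316, -0.0790, -0.0180 (shared starts) and -0.0603 (ends shortened). In GF_TAC against GF, Rpl7l1 became 0.0016 with a common sum. In GF against JAX, Rpl30 became -0.0287 with a common sum, and Rpl7l1 -0.0019 with a common sum, -0.0492 with the slope and -0.0416 with both. In GF against TAC, Rpl30 became -0.0680, -0.0952 and -0.0613 and Rpl7l1 -0.0856, -0.2700 and -0.2789 under the same settings. For the interaction, Rpl41 became 0.1212 with depth and 0.0228 with both, Rps2 0.1147 and 0.0044, and Rplp1 0.1791 with depth. Without 1 library, Rps4l ranged from -0.1515 to 0.2111 between donors, Rpl41 from -0.0506 to 0.2996 and Rps2 from -0.0488 to 0.2721 in GF_JAX against GF, and Rpl30 from -0.2598 to 0.1838 and Rpl7l1 from -0.0163 to 0.0640 in GF against TAC. The cause was not tested. Of the other single values under settings that change the fit or leave out several libraries, 523 kept direction and side of the threshold, 89 kept the direction and were no longer called, and 2 were called in addition. Without 1 library, 841 kept both and 96 were no longer called.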
